A study of Mus musculus with 10 samples.

Results

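Interstitial macrophages occupy the connective tissue of the lung around vessels and airways, and monocytes are the circulating cells that enter the tissue and can renew macrophages. Interstitial macrophages are a main source of C1q, the recognition protein of the classical complement pathway, which is assembled from equal numbers of A, B and C chains. Their growth factor receptor is CSF1R, and the chemokine receptors CCR2 and CX3CR1 mark classical and patrolling monocytes. The 9 genes described here are C1qa, C1qb, C1qc, Apoe, Csf1r, Adgre1, Ccr2, Cx3cr1 and Ly6c2. They were chosen by symbol, and all 9 of 9 were found among the 27179 Entrez genes of the deposited counts.

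The counts come from polyadenylated RNA of the whole lungs of 10 mice. In the 5 EpithelialKO mice (Shh Cre/+ IRE1α fl/fl) Cre from the Shh locus acts on floxed alleles of Ern1, the gene of the endoplasmic reticulum stress sensor IRE1α, in lung epithelium. The 5 Flox mice (Shh +/+ IRE1α fl/fl) carry the same floxed alleles and no Cre, so an effect of Cre or of the altered Shh locus cannot be told apart from one of Ern1 loss. Age and sex are not given in the labels used here, and each library is 1 mouse.

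Totals ranged from 16234895 to 18870247 counts in EpithelialKO and from 14983829 to 21224412 in Flox. Ern1 was at 12.3, 15.5, 10.7, 21.8 and 26.1 CPM (counts scaled to library size by TMM) in EpithelialKO mice 17, 18, 20, 21 and 22, against 20.1, 19.8, 15.6, 8.05 and 20.5 CPM in Flox mice 2, 3, 4, 5 and 6. The groups overlapped, and counts over the whole gene in whole lung do not check the genotype. Fold changes are also given without Flox mice 4 and 6, which stood apart from the other 8 mice. Xist was counted 3949 and 4866 times in them and at most 61 times elsewhere. The Y-linked genes Ddx3y, Uty, Kdm5d and Eif2s3y together had 0 counts in them and 2462 to 3575 counts in each other mouse. By these counts Flox mice 4 and 6 were female and the other 8 mice, with all 5 EpithelialKO mice among them, were male. Sex was therefore unbalanced between the groups. Flox mouse 5 had the lowest total.

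None of the 9 genes differed between EpithelialKO and Flox lungs past the threshold, an adjusted p of 0.05 in edgeR's quasi-likelihood test over all genes. Of all 15301 genes tested, 0.0392% passed (0.00654% higher and 0.0327% lower in EpithelialKO). At an unadjusted p under 0.05 there was 1 of 9 in edgeR, C1qc, and 1 of 9 in the DESeq2 Wald test and in limma-voom, and those tools called none after adjustment either. The share of all genes with an unadjusted edgeR p under 0.05 was 12.4% (5.87% higher and 6.52% lower). The share was 13.2% in DESeq2 and 15.8% in limma-voom, and after adjustment they called 279 and 32 of all genes. In no member did the groups separate, against 3.12% of all genes (1.63% higher and 1.48% lower). The log2 fold change, EpithelialKO over Flox, was negative for 6 members (C1qa, C1qb, C1qc, Apoe, Csf1r and Cx3cr1) and positive for 3 (Adgre1, Ccr2 and Ly6c2), with a median of -0.15. Over all genes 49.9% were negative. Without Flox mice 4 and 6 none passed in edgeR and 2 had an unadjusted p under 0.05, 22.2% of the members against 7.68% of all genes in that fit. These 2 were the neighbouring genes C1qc and C1qa (edgeR adjusted p 0.526 and 0.575). Flox mouse 3, which had the highest value of both, remained in that fit. The log2 fold changes were then -0.39 for C1qa, -0.15 for C1qb, -0.52 for C1qc, -0.15 for Apoe, -0.10 for Csf1r, 0.38 for Adgre1, 0.14 for Ccr2, -0.02 for Cx3cr1 and 0.17 for Ly6c2. In whole lung, fewer cells of a type and less RNA per cell cannot be told apart.

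**Figure D1:**
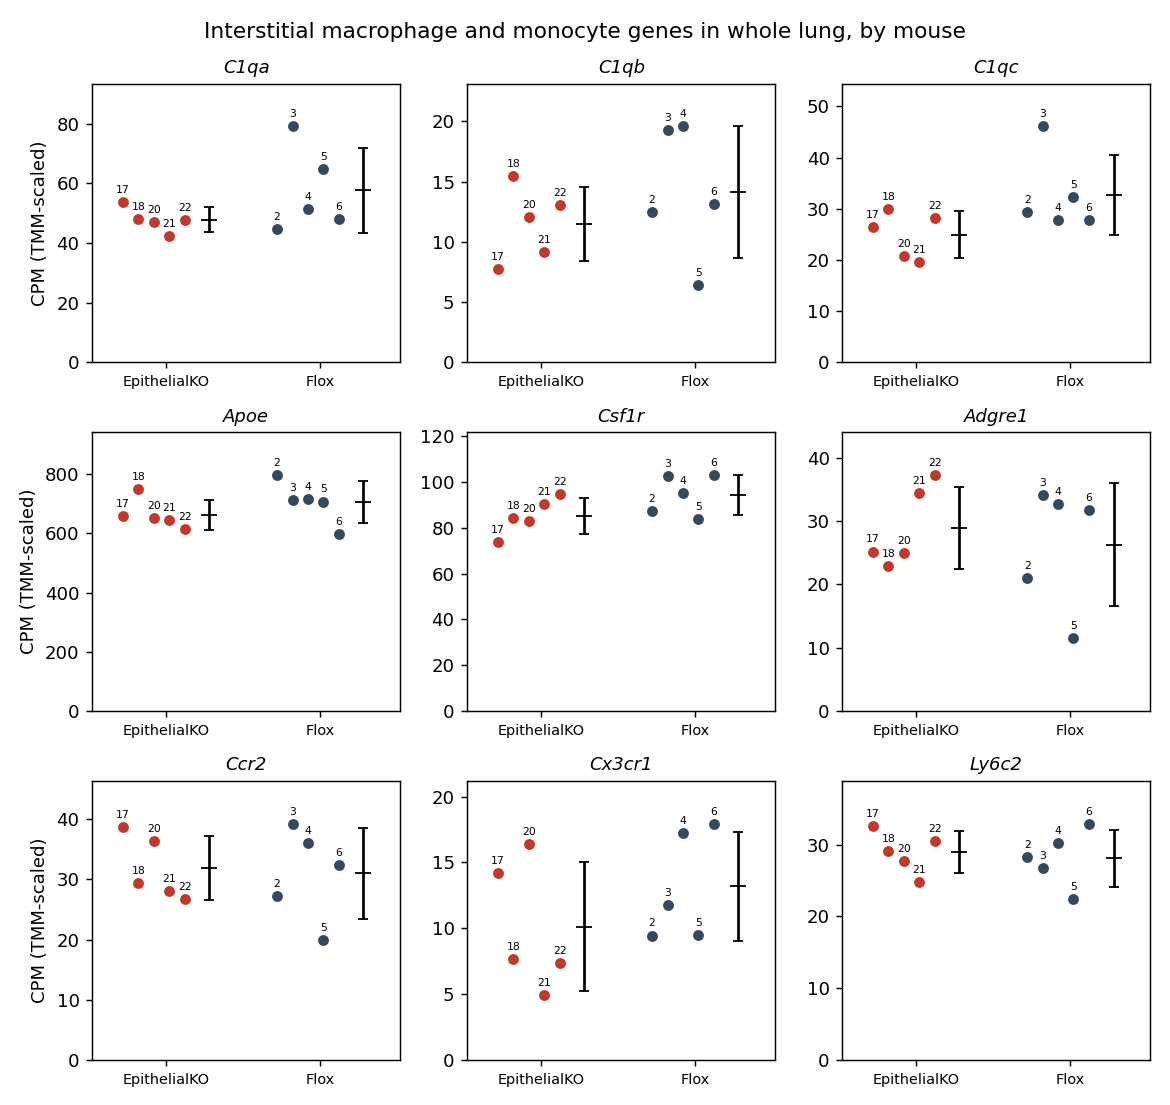
Each panel shows 1 gene, with TMM-scaled CPM on a linear axis from 0, a point per mouse labelled with its number, and the mean ± SD of the 5 mice beside each group. EpithelialKO (red) and Flox (dark blue) overlap in all 9 panels, and Flox mouse 3 stands above the other mice for C1qa and C1qc.

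The C1q genes lie side by side on the minus strand of chromosome 4 (GRCm38): C1qa (Entrez 12259) at 136895916 to 136898844, C1qc (Entrez 12262) at 136889801 to 136892936 and C1qb (Entrez 12260) at 136880126 to 136886200. The 150 bases before a RefSeq transcript start of the neighbours C1qb and C1qc are shown because these chains were measured at different levels. For C1qc this start lies inside the gene span given above, so the end of its window overlaps that span. Capitals mark GAGGAA on either strand (TTCCTC), the core of sites bound by the myeloid factor PU.1. This motif occurs in 14.5% of the 32851 RefSeq promoter windows of this length, so its presence or absence here is a description of the letters alone.
C1qb, chr4:136886201-136886350, minus strand: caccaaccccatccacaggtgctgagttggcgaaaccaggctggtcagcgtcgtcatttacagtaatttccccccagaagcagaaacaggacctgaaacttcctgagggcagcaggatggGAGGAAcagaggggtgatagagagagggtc
C1qc, chr4:136892915-136893064, minus strand: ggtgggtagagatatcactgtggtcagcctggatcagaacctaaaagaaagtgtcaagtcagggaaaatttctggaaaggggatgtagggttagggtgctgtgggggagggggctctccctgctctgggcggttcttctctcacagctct

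C1qa, the A chain, had 53.9, 48.0, 47.1, 42.2 and 47.7 CPM in EpithelialKO mice 17, 18, 20, 21 and 22, against 44.8, 79.2, 51.3, 64.7 and 48.1 CPM in Flox mice 2 to 6. All 5 EpithelialKO mice lay under the Flox mean, yet Flox mice 2, 4 and 6 lay within the EpithelialKO range and only Flox mice 3 and 5 lay above it. The means were 47.8 ± 4.13 CPM in EpithelialKO and 57.6 ± 14.2 CPM in Flox (SD, n = 5 each), for a log2 change of -0.27 ± 0.14 (SE, edgeR's adjusted p 0.452). Without Flox mouse 3 it was -0.13.

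C1qc, the C chain, had 26.3, 29.9, 20.7, 19.6 and 28.1 CPM in EpithelialKO mice 17, 18, 20, 21 and 22, against 29.3, 46.1, 27.8, 32.4 and 27.8 CPM in Flox mice 2 to 6. EpithelialKO mice 20 and 21 were lowest, mice 18 and 22 lay among the Flox mice, and Flox mouse 3 was far above the rest. The means were 24.9 ± 4.57 CPM in EpithelialKO and 32.7 ± 7.75 CPM in Flox (SD, n = 5 each), with a log2 fold change of -0.39 ± 0.16 (SE). In edgeR's quasi-likelihood test across all genes its p was 0.0287 before adjustment and 0.335 after it. Its unadjusted 95% interval ran from -0.73 to -0.05, and without Flox mouse 3 the value was -0.23.

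C1qb, the B chain, was the least abundant of the chains and varied most. It had 7.74, 15.4, 12.0, 9.19 and 13.1 CPM in EpithelialKO mice 17, 18, 20, 21 and 22, against 12.5, 19.3, 19.6, 6.39 and 13.1 CPM in Flox mice 2 to 6. Both groups spanned low and high mice, and the lowest mouse of all was Flox mouse 5. The log2 fold change was -0.30 ± 0.27 (SE, edgeR's adjusted p 0.685), and it was -0.49 without Flox mouse 5, -0.16 without Flox mouse 4, -0.17 without Flox mouse 3 and -0.19 without EpithelialKO mouse 17. Counts behind these values were 96 to 361 per mouse, for which counting alone gives a coefficient of variation of 6.53%, against 26.7% measured in EpithelialKO and 38.7% in Flox.

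Since the chains form 1 protein, their counts were compared within each mouse, which does not depend on library scaling. The count ratio of C1qb to C1qa was 0.144, 0.322, 0.256, 0.218 and 0.274 in EpithelialKO mice 17, 18, 20, 21 and 22, against 0.279, 0.244, 0.382, 0.0988 and 0.273 in Flox mice 2 to 6. The lowest and highest ratios were both Flox mice, 5 and 4, and they differed 3.87-fold, with 95% counting intervals of 0.0801 to 0.122 and 0.338 to 0.431. The ratio of C1qc to C1qa was steadier, at 0.440 to 0.624 in EpithelialKO and 0.500 to 0.654 in Flox. Neither ratio separated the groups. The mean log2 difference, EpithelialKO minus Flox, was 0.003 for C1qb to C1qa (exact two-sided permutation test, p = 0.992, adjusted p = 0.992 over 3 ratios) and -0.14 for C1qc to C1qa (exact p = 0.262, adjusted p = 0.786). The smallest p that this test allows is 0.00794. Without Flox mouse 5 the mean difference for C1qb to C1qa was -0.31 (adjusted p = 0.44, exact test). The transcripts of the chains share no stretch of 50 bases, and no other annotated exon overlaps them, so reads of that length or more are not shared between them.

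**Figure D2:**
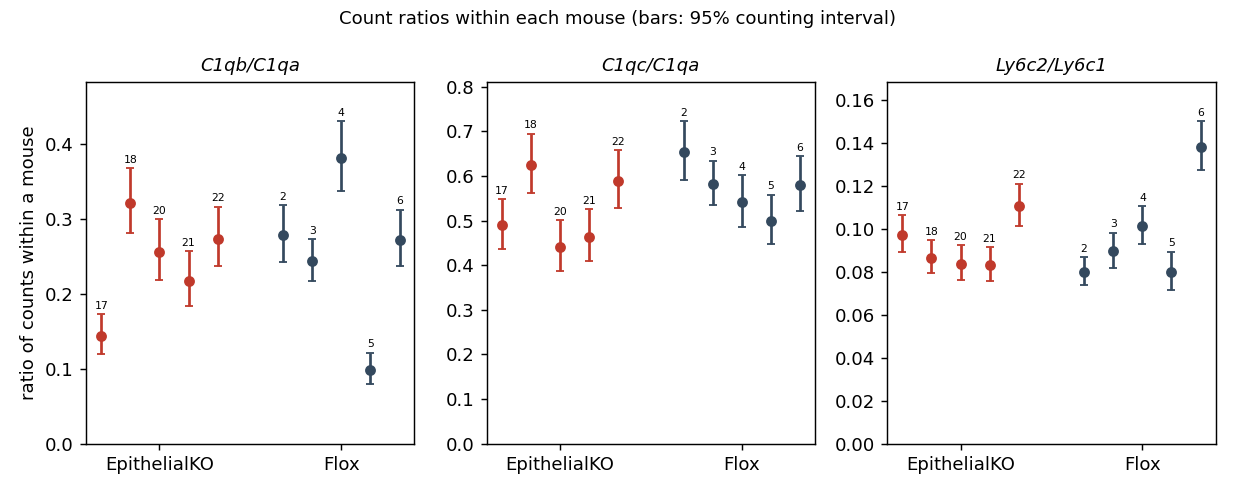
Each panel plots the ratio of the counts of 2 genes within a mouse, on a linear axis from 0, with points labelled by mouse number and bars for the 95% counting interval. The C1qb to C1qa ratio runs from 0.0988 to 0.382, while that of C1qc to C1qa stays between 0.440 and 0.654.

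Apoe encodes the lipoprotein that carries cholesterol out of macrophages and is also made by alveolar macrophages and other lung cells (Entrez 11816, chromosome 7, 19696244 to 19701310). It was by far the most abundant of the 9, with 659, 749, 651, 644 and 614 CPM in EpithelialKO mice 17, 18, 20, 21 and 22, against 797, 713, 714, 708 and 599 CPM in Flox mice 2 to 6. The highest and the lowest mouse were both Flox. Its log2 fold change was -0.09 ± 0.09 (SE, edgeR's adjusted p 0.746), and its 95% interval ran from -0.29 to 0.11.

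Csf1r encodes the receptor of the growth factors CSF1 and IL-34 on which most macrophages and patrolling monocytes depend (Entrez 12978, chromosome 18). It had 73.8, 84.2, 82.9, 90.3 and 94.6 CPM in EpithelialKO mice 17, 18, 20, 21 and 22, against 87.4, 103, 95.1, 83.7 and 103 CPM in Flox mice 2 to 6. Flox mice 3, 4 and 6 lay above every EpithelialKO mouse, and Flox mice 2 and 5 lay among them. The means were 85.2 ± 7.92 CPM in EpithelialKO and 94.4 ± 8.75 CPM in Flox (SD, n = 5 each), for a log2 change of -0.15 ± 0.10 (SE, edgeR's adjusted p 0.556). Of its annotated exon bases, 15.1% (873) overlap Hmgxb3 on the opposite strand. The strand setting of the counting is not given in the sources used here, so some of these reads may belong to that gene.

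Adgre1 encodes F4/80, the surface antigen used to identify mouse macrophages (Entrez 13733, chromosome 17, 57358581 to 57483529). It had 25.2, 22.9, 25.02, 34.5 and 37.3 CPM in EpithelialKO mice 17, 18, 20, 21 and 22, against 21.0, 34.2, 32.8, 11.6 and 31.7 CPM in Flox mice 2 to 6. EpithelialKO mice 21 and 22 were the highest of all mice and Flox mouse 5 was the lowest. Between the groups the log2 fold change was 0.14 ± 0.25 (SE, edgeR's adjusted p 0.869), and it was -0.04 without Flox mouse 5. The same mice stood at the ends of the list of alveolar macrophage genes, whose mean log2 CPM was 6.08 and 6.25 in EpithelialKO mice 21 and 22, 5.47 to 5.54 in the other 3 EpithelialKO mice, 5.05 in Flox mouse 5 and 5.60 to 5.89 in the other 4 Flox mice. F4/80 is also carried by alveolar macrophages, and their part in the Adgre1 counts was not tested.

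Ccr2, the receptor by which classical monocytes leave the bone marrow and enter tissue (Entrez 12772, chromosome 9, 124101918 to 124109140), had 38.7, 29.5, 36.4, 28.1 and 26.8 CPM in EpithelialKO mice 17, 18, 20, 21 and 22, against 27.3, 39.2, 36.1, 20.0 and 32.4 CPM in Flox mice 2 to 6. The EpithelialKO mice lay inside the Flox range throughout. The log2 fold change was 0.04 ± 0.17 (SE, edgeR's adjusted p 0.961), and its 95% interval ran from -0.31 to 0.39. It was -0.08 without Flox mouse 5.

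Cx3cr1, the fractalkine receptor of patrolling monocytes and some interstitial macrophages (Entrez 13051, chromosome 9, 120048683 to 120068296), was the scarcest member. It had 14.2, 7.69, 16.4, 4.92 and 7.38 CPM in EpithelialKO mice 17, 18, 20, 21 and 22, against 9.44, 11.7, 17.2, 9.52 and 17.9 CPM in Flox mice 2 to 6. EpithelialKO mice 18, 21 and 22 lay under all Flox mice, whereas mice 17 and 20 lay among the highest. The log2 fold change was -0.38 ± 0.31 (SE, edgeR's adjusted p 0.652), with a 95% interval from -1.04 to 0.27. Without Flox mice 4 and 6, which had the highest Flox values, it was -0.02. Counting noise, 6.91%, was small beside the spread of 48.5% in EpithelialKO and 31.4% in Flox. NK and T cells also carry this receptor. Of its exon bases, 1.7% (78) overlap the antisense gene Gm33858.

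Ly6c2, which encodes the surface antigen Ly6C of classical monocytes (Entrez 100041546, chromosome 15, 75108161 to 75112066), has a near-identical neighbour, Ly6c1, which is strongly expressed by endothelium. Their coding sequences, 396 bases each, differ at 9 positions (97.7% identity), with an identical run of 188 bases. The first 120 coding bases hold 6 of these differences, in capitals, and are shown because most of the coding differences between the pair lie there.
Ly6c2: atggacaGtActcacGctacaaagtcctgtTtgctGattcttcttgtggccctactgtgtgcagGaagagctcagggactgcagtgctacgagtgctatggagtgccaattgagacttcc
Ly6c1: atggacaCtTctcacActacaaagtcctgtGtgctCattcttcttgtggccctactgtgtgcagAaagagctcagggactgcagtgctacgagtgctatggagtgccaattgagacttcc

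Of the windows in protein-coding Ly6c2 transcripts, 30.8% at 50 bases, 20.7% at 75, 14.9% at 100 and 5.4% at 150 bases also occur in Ly6c1. Of the 100-base windows of Ly6c1, 6.5% occur in Ly6c2. Neither the read length nor the counting of reads with several matches is given in the sources used here. Since Ly6c1 had far more counts, the share of Ly6c2 counts that may come from it is not known. Ly6c2 had 32.6, 29.1, 27.8, 24.8 and 30.5 CPM in EpithelialKO mice 17, 18, 20, 21 and 22, against 28.3, 26.7, 30.3, 22.4 and 32.9 CPM in Flox mice 2 to 6, with the lowest and the highest mouse both Flox. For Ly6c2 the log2 fold change was 0.04 ± 0.13 (SE, edgeR's adjusted p 0.936), with a 95% interval from -0.22 to 0.31. Ly6c1 averaged 315 ± 27.1 CPM in EpithelialKO and 294 ± 41.8 CPM in Flox (SD, n = 5 each). The count ratio of Ly6c2 to Ly6c1 was 0.0832 to 0.111 in EpithelialKO and 0.0800 to 0.138 in Flox. Its mean log2 difference was -0.06 (exact permutation test, p = 0.778, adjusted p = 0.992), and 0.07 without Flox mouse 6, which had the highest ratio.

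**Figure D3:**
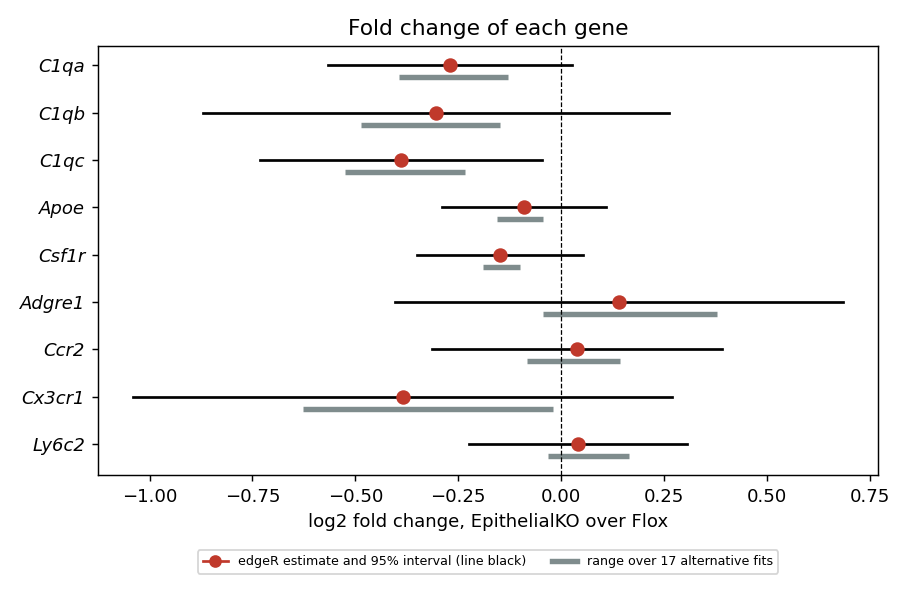
Points are log2 fold changes of EpithelialKO over Flox with their unadjusted 95% intervals as black lines, and grey bars give the range over 17 alternative fits. The interval of C1qc ends at -0.05, and those of the other 8 genes include 0.

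Per kilobase of the longest protein-coding transcript, and over all 10 mice, the level of Apoe was 486 ± 44.1 CPM per kb (SD). Next came C1qa at 50.7 ± 10.7, Ly6c2 at 34.7 ± 4.02, C1qc at 23.9 ± 6.03 and Csf1r at 19.1 ± 1.97 CPM per kb. The lowest levels were those of C1qb at 11.8 ± 4.06, Adgre1 at 8.53 ± 2.44, Ccr2 at 5.49 ± 1.08 and Cx3cr1 at 2.59 ± 1.02 CPM per kb. The ranges over mice overlapped between every pair of neighbours from Ly6c2 downwards. Within mice the order of neighbours still held in 10 of 10 mice for 5 pairs, in 9 for Ly6c2 over C1qc, and in 8 for C1qc over Csf1r and for C1qb over Adgre1.

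Relative to leukocyte RNA, measured as the geometric mean count of 15 pan-leukocyte genes such as the phosphatase gene Ptprc, the groups also overlapped for all 9 members. Ptprc itself averaged 144 ± 18.9 CPM in EpithelialKO and 167 ± 25.6 CPM in Flox (SD, n = 5 each, edgeR adjusted p = 0.487). Of the 15 genes 14 had a negative log2 fold change (median -0.18), and a lower denominator in EpithelialKO raises the differences that follow. The mean log2 difference, EpithelialKO minus Flox, was -0.04 for C1qa, -0.04 for C1qb, -0.18 for C1qc, 0.05 for Csf1r and -0.27 for Cx3cr1 on this scale. For Ccr2 and Ly6c2 it was 0.26 and 0.25, above the within-group SD of 0.20 and 0.18, and for Adgre1 it was 0.42, within its SD of 0.45. For Apoe it was 0.11, within its SD of 0.23. In CPM, without this denominator, Ccr2 and Ly6c2 each had a log2 fold change of 0.04. The differences relative to leukocyte genes carry no test. Leaving out 1 mouse could turn the sign for C1qa, C1qb and Csf1r. The other members kept their sign, though C1qc and Cx3cr1 came to -0.06. Over the values that left out 1 mouse, C1qa ran from -0.16 without Flox mouse 4 to 0.09 without Flox mouse 5, and C1qb from -0.22 without Flox mouse 5 to 0.10 without EpithelialKO mouse 17. C1qc ran from -0.32 without Flox mouse 4 to -0.06 without Flox mouse 3, Csf1r from -0.03 to 0.11, Cx3cr1 from -0.42 to -0.06, Apoe from 0.04 to 0.19 and Adgre1 from 0.23 to 0.53. Ccr2 stayed between 0.19 and 0.35 and Ly6c2 between 0.19 and 0.31. Without Flox mice 4 and 6 the values were -0.29 for C1qa, -0.44 for C1qc, -0.08 for Cx3cr1 and -0.08 for Apoe.

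By the correlation of log2 CPM over the 10 mice, the genes most like the mean of the C1q chains, out of 11824 compared, were Cyp4f16 (Pearson r = 0.91), Cchcr1 (0.85), Usp11 (0.85), the chemokine gene Ccl22 (0.83) and AW112010 (0.83). Those most like Ccr2 were Pi16 (Pearson r = 0.96), 9130023H24Rik (0.92), Mrpl19 (0.91) and Chmp1a (0.91). These are the top values of many compared over few mice and are given as a description. None of the genes named belongs to the lists used here.

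Partners of these genes were followed in lists of related genes. Of 15 complement genes, which comprise partners and regulators of C1q and the receptors of C3a and C5a, 13 had a negative log2 fold change. The median was -0.20, and -0.10 without Flox mouse 6. None passed in edgeR, and 2 had an unadjusted edgeR p under 0.05, 13.3% against 12.4% of all genes. The DESeq2 Wald test called 1, Lrp1, and limma-voom none. Lrp1, a receptor that also takes up Apoe particles, averaged 175 ± 9.57 CPM in EpithelialKO and 225 ± 18.5 CPM in Flox (SD, n = 5 each), for a log2 change of -0.36 ± 0.09 (SE, edgeR's adjusted p 0.116), without overlap of the groups. Cd93, an endothelial and myeloid surface protein, had -0.25 ± 0.11 (edgeR adjusted p = 0.38). C4b, cleaved by the C1 complex, had -0.78 ± 0.41 (SE, edgeR's adjusted p 0.487), with 94.0, 91.6, 91.8, 205 and 186 CPM in EpithelialKO mice 17, 18, 20, 21 and 22, against 134, 317, 109, 225 and 359 CPM in Flox mice 2 to 6. EpithelialKO mice 21 and 22 stood apart from the other 3 and lay within the Flox range. The mean log2 CPM of the whole complement list split in the same way, at 6.41 and 6.33 in EpithelialKO mice 21 and 22 and 5.95 to 5.97 in the other 3, against 5.96 in Flox mouse 5 and 6.26 to 6.56 in the other 4 Flox mice. C1qbp, a mitochondrial protein that can bind C1q, had 0.16 ± 0.12.

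Of 12 genes of CSF1 receptor ligands and signalling, none passed in edgeR, DESeq2 or limma-voom (median log2 fold change -0.04). In this list 2 had an unadjusted edgeR p under 0.05, 16.7% against 12.4% of all genes. The ligand gene Csf1 averaged 29.9 ± 7.13 CPM in EpithelialKO and 37.4 ± 7.30 CPM in Flox (SD, n = 5 each, log2 fold change -0.33 ± 0.17, SE). The leukocyte kinase gene Pik3cd had -0.37 ± 0.14, and the transcription factor genes Cebpa and Runx1, also expressed outside macrophages, had 0.26 ± 0.10 and 0.16 ± 0.11. A further list of 9 genes held monocyte chemoattractants beside chemokine-binding receptors and proteases. Of these 7 could be tested, all with a negative log2 fold change (median -0.23, and -0.22 without Flox mouse 3). None passed in edgeR, DESeq2 or limma-voom and none had an unadjusted edgeR p under 0.05. The chemokine gene Ccl8 had 31.3 CPM in Flox mouse 3, 1.47 to 4.79 CPM in the other Flox mice and 4.45 to 7.27 CPM in EpithelialKO. The mean log2 CPM of the list was 4.48 in Flox mouse 3, 3.13 to 3.69 in the other Flox mice and 3.32 to 3.73 in EpithelialKO. Cx3cl1, the ligand of Cx3cr1, had -0.23 ± 0.15, and Adam10 and Adam17, the proteases that release it from the membrane, had -0.28 ± 0.15 and -0.20 ± 0.10. Ackr2, a scavenger of chemokines, had -0.17 ± 0.14. Ccl2, the ligand of Ccr2, was too scarce to test, with 87 counts over the 10 mice.

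Of 12 genes of apolipoproteins and cholesterol efflux, 11 were tested and none passed in edgeR, DESeq2 or limma-voom. Among these 2 had an unadjusted edgeR p under 0.05, 18.2% against 12.4% of all genes. The median log2 fold change was 0.05. Its sign turned without Flox mouse 5 (-0.06), without EpithelialKO mouse 21 (-0.01) and in limma-voom (-0.02). Vldlr, a receptor for Apoe, averaged 50.1 ± 5.98 CPM in EpithelialKO and 39.0 ± 2.51 CPM in Flox (SD, n = 5 each), without overlap of the groups (0.36 ± 0.10, SE, edgeR adjusted p = 0.167). The lipase gene Lpl had 0.24 ± 0.10, and Apoc1, the neighbour of Apoe, had 0.18 ± 0.13. Mylip, whose product degrades lipoprotein receptors, had -0.18 ± 0.16.

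Of 19 further interstitial macrophage genes 11 had a negative and 8 a positive log2 fold change. The median was -0.01, and between -0.08 and 0.04 when 1 mouse was left out. None was past the threshold in edgeR, DESeq2 or limma-voom, and 2 had an unadjusted edgeR p under 0.05, 10.5% against 12.4% of all genes. The platelet factor gene Pf4, expressed in macrophages and platelets, had 0.51 ± 0.16 (edgeR adjusted p = 0.21), and the scavenger receptor gene Stab1 had -0.32 ± 0.10 (edgeR adjusted p = 0.222). The endotoxin receptor gene Cd14 had 0.30 ± 0.15 and Aif1, which encodes the macrophage protein IBA1, had -0.41 ± 0.24. Of 22 further monocyte genes 16 were negative (median -0.20, and -0.11 without Flox mouse 6, -0.12 without EpithelialKO mouse 21 and -0.04 without Flox mice 4 and 6). None passed in edgeR, DESeq2 or limma-voom, and 7 had an unadjusted edgeR p under 0.05, 6 of them lower, a share of 31.8% against 12.4% of all genes. Without Flox mice 4 and 6 the number was 2, a share of 9.09% against 7.68% of all genes in that fit. Itgam, the integrin chain CD11b, averaged 17.4 ± 1.98 CPM in EpithelialKO and 25.4 ± 6.01 CPM in Flox (SD, n = 5 each), for a log2 change of -0.54 ± 0.16 (SE, edgeR's adjusted p 0.177). Spn, the leukocyte sialophorin CD43, had -0.44 ± 0.16. Ace, which endothelium also expresses, had -0.36 ± 0.11 (edgeR adjusted p = 0.183) and did not overlap between the groups.

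**Figure D4:**
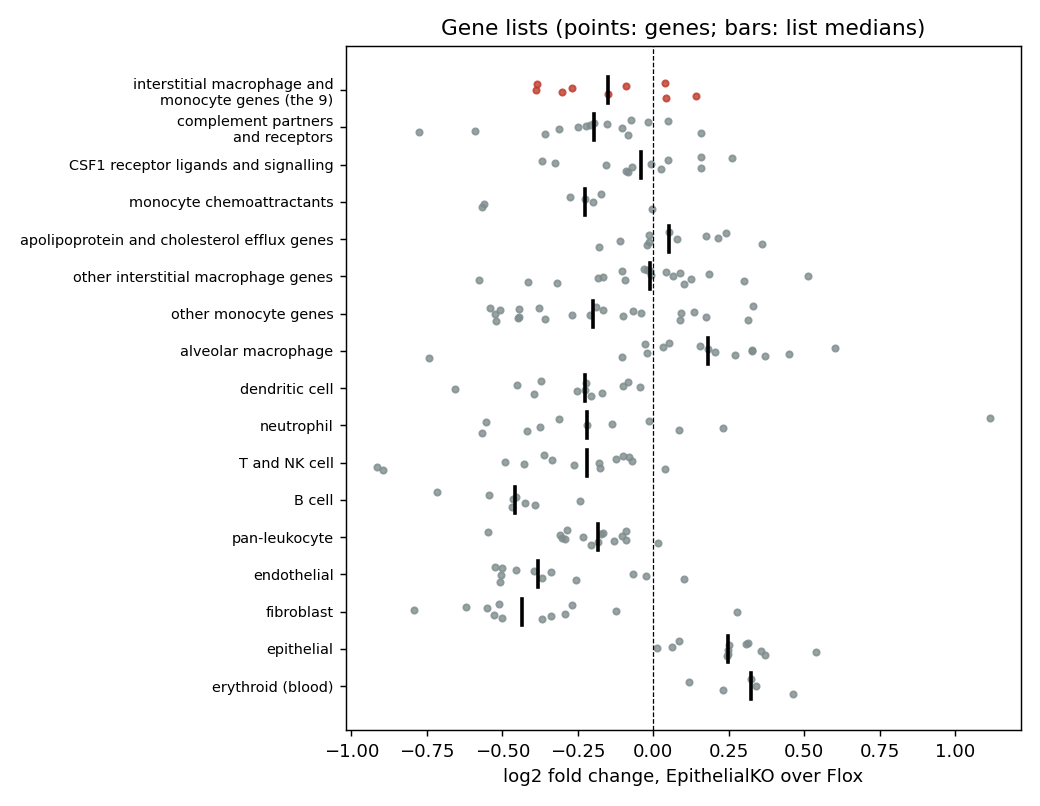
Each point is the log2 fold change of 1 tested gene, EpithelialKO over Flox, and black bars are list medians. The 9 interstitial macrophage and monocyte genes (red) have a median of -0.15, beside -0.18 for the pan-leukocyte genes, -0.38 for endothelial and 0.25 for epithelial genes.

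Markers of other cells were measured beside the 9 genes. Pan-leukocyte genes were negative in 14 of 15 (median -0.18), with summed levels of 1404 to 1684 CPM in EpithelialKO and 1400 to 2044 CPM in Flox. None passed in edgeR, DESeq2 or limma-voom, and 4 had an unadjusted edgeR p under 0.05, a share of 26.7% against 12.4% of all genes. Without Flox mice 4 and 6 the number was 0, against 7.68% of all genes in that fit. The median was -0.10 without Flox mouse 4 and -0.05 without Flox mice 4 and 6.

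Alveolar macrophage genes were positive in 11 of 15 (median 0.18), with sums of 1332 to 2563 CPM in EpithelialKO and 1037 to 1819 CPM in Flox. The direction depended on single mice: leaving out Flox mouse 5 gave a median of -0.02, leaving out EpithelialKO mouse 22 gave 0.02, and leaving out Flox mice 4 and 6 gave 0.39. Under limma-voom it was 0.06. Within the list the scavenger receptor gene Marco averaged 15.2 ± 1.84 CPM in EpithelialKO and 25.4 ± 3.86 CPM in Flox (SD, n = 5 each), without overlap (-0.74 ± 0.14, SE, edgeR adjusted p = 0.0598). The lipid-sensing receptor gene Pparg was higher instead, at 23.9 ± 3.53 CPM in EpithelialKO and 15.8 ± 2.88 CPM in Flox (SD, n = 5 each), also without overlap (0.60 ± 0.15, SE, edgeR adjusted p = 0.139). DESeq2 called both, limma-voom called Marco alone, and edgeR called neither.

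Dendritic cell genes had a median of -0.23 (12 of 12 negative, sums of 124 to 168 CPM in EpithelialKO and 155 to 203 CPM in Flox), and DESeq2 called 1 of them, H2-Ob. Neutrophil genes had -0.22 (8 of 11 negative, 431 to 687 CPM in EpithelialKO and 467 to 682 CPM in Flox, G0s2 at 0 counts in every mouse), and -0.06 without EpithelialKO mouse 22 and -0.07 without EpithelialKO mouse 18. The neutrophil gene S100a8 averaged 74.0 ± 34.9 CPM in EpithelialKO and 86.1 ± 8.71 CPM in Flox (SD, n = 5 each). T and NK cell genes had -0.22 (13 of 14 negative, 176 to 281 CPM in EpithelialKO and 204 to 341 CPM in Flox), but -0.11 without Flox mouse 4, -0.39 without EpithelialKO mouse 20 and 0.02 without Flox mice 4 and 6. B cell genes had -0.46 (8 of 8 negative, 132 to 241 CPM in EpithelialKO and 187 to 415 CPM in Flox), with -0.23 without Flox mouse 4 and -0.30 without Flox mice 4 and 6, and DESeq2 called 1 of them, Fcer2a. Over all 16 lists 1 gene passed in edgeR, the T and NK cell gene Il2rb (-0.92 ± 0.14, SE, adjusted p = 0.0272). It did not pass without Flox mice 4 and 6, nor without any single mouse other than Flox mouse 5. DESeq2 called Il2rb and Prf1, and limma-voom called Il2rb.

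The endothelial list had a median of -0.38 (3063 to 4167 CPM in EpithelialKO, 4131 to 5017 CPM in Flox), with 9 of 12 at an unadjusted edgeR p under 0.05. DESeq2 called 5 of them, all lower (Ptprb, Aplnr, Tie1, Kdr and Plvap), and limma-voom 2 (Ptprb and Plvap). The fibroblast list had -0.43 (1131 to 1269 CPM in EpithelialKO, 1346 to 2032 CPM in Flox), with 7 of 12 at an unadjusted edgeR p under 0.05, 6 called by DESeq2 and 1, Fn1, by limma-voom. The epithelial list had 0.25 (75991 to 80660 CPM in EpithelialKO, 55032 to 80434 CPM in Flox), with 7 of 12 at an unadjusted edgeR p under 0.05, 1 called by DESeq2, Krt8, and none by limma-voom. Of all 15301 genes, 12.4% had an unadjusted edgeR p under 0.05, DESeq2 called 279 and limma-voom 32. Without Flox mice 4 and 6 the medians were -0.33 for endothelial, -0.28 for fibroblast and 0.23 for epithelial genes. In that fit 6, 5 and 4 of 12 had an unadjusted edgeR p under 0.05, against 7.68% of all genes. None of them passed in edgeR. The erythroid list, a measure of blood in the lung, had 0.32, with sums of 2188 to 5482 CPM in EpithelialKO and 1155 to 4856 CPM in Flox, and ran from 0.12 without EpithelialKO mouse 20 to 0.71 without Flox mouse 2. The part of these shifts in the values of the 9 genes was not tested.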

How the data were processed

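The submitters' processing notes name cutadapt and HISAT2 with the GRCm38 build, without versions; no source used here states the counting tool or annotation. The deposited values are raw counts per Entrez gene, 1 column per mouse; 25275 of 27179 IDs matched a RefSeq symbol (GRCm38.p6), and transcript lengths came from GENCODE M21. All pairs of mice differed beyond counting noise (lowest chi-square per degree of freedom 17.8). P-values set the difference between the groups against the spread between these mice, and sex was unbalanced between the groups.

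After filterByExpr, 15301 genes were scaled by TMM and fitted with edgeR 4.0.16 (robust quasi-likelihood, group as the only term, R 4.3.3), with Benjamini-Hochberg adjustment over all of them. DESeq2 1.42.0, limma 3.58.1 (voom), other scalings and filters, and leaving out mice were alternatives. A standard error is the fold change over the root of its F value. The script was tested on simulated data, where edgeR called 33.6% of genes changed 1.5-fold and 68.5% of those changed 2-fold. Of its calls there 6.64% were false. Changes smaller than 1.5-fold were not simulated. Counting intervals are at 95% and cover counting error only.

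Members and lists were chosen with earlier results of these data known. Named genes were the members, Ern1 and up to 4 genes of lowest p per related list, plus any past the threshold and the markers Ptprc, Marco, S100a8 and Ly6c1, and the 5 genes most like the C1q chains and Ccr2, at 5 CPM or more. Ccl2, Ccl8, Tie1 and G0s2 were named after their values were seen. Some genes that this rule names are not reported here. Ratios within a mouse were tested over the 252 assignments of mice to groups.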

Additional observations from a re-analysis of the deposited data

Results flagged for a closer look

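C1qc stood at 46.1 CPM in Flox mouse 3, and the gap to the next Flox mouse was large for a group of 5. It was the only value set apart in this way among 24 groups of 5 examined, the 9 genes and 3 ratios in each group of mice, and chance gives about 1 in 20. Flox mouse 3 also had the highest C1qa of all mice, 79.2 CPM, whereas its Ly6c2, at 26.7 CPM, was the lowest but 2 of the 10 mice.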

How the results depend on the processing

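No member passed the threshold in any of the 17 alternative fits or at an adjusted p of 0.1. The signs of C1qa, C1qb, C1qc, Csf1r, Cx3cr1 and Apoe held in all 17. Those of Ccr2 and Ly6c2 turned under limma-voom (-0.042 and -0.032), and over the fits that left out 1 mouse Ccr2 ranged from -0.083 to 0.14, Ly6c2 from -0.030 to 0.10 and Adgre1 from -0.045 to 0.25. The ratio differences ranged over those fits from -0.31 to 0.18 for C1qb to C1qa and from -0.13 to 0.072 for Ly6c2 to Ly6c1, and that of Ly6c2 to Ly6c1 was 0.14 without Flox mice 4 and 6. The median of the CSF1 receptor list ranged from -0.10 without Flox mouse 5 to 0.079 without Flox mouse 3. Calls over all genes numbered 6, and 279 in DESeq2, 32 in limma-voom, 34 without a count filter, 38 at an adjusted p of 0.1, 0 without Flox mice 4 and 6 (edgeR, 1207 at an unadjusted p under 0.05), and 0 to 48 when 1 mouse was left out, 48 without Flox mouse 5 and 0 in the other 9 fits (edgeR, 1444 to 1960 at an unadjusted p under 0.05). The cause was not tested. No paired analysis was possible because the groups share no mouse numbers. Counts were lowest for Cx3cr1 and C1qb, with as few as 91 and 96 in a mouse, yet their counting noise was well below their spread between mice.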
